A study of Rattus norvegicus with 16 samples.

Results

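The nuclear genes of the mitochondrial respiratory chain and of ATP synthase were followed in the gustatory cortex (GC), the insular region that receives taste input, of rats that had drunk a familiar or an unfamiliar fluid. Members were the genes whose symbol names a subunit of complexes I to V (Nduf, Sdh, Uqcr, Cox4 to Cox8 and Atp5), read by a probe set that the array annotation pairs with exactly 1 gene. The rule used symbols alone and no measured value. It found 90 probe sets of 80 genes, out of 15209 such probe sets of 14497 genes. By complex these were 34 genes of complex I, 3 of its assembly factors (Ndufaf1, Ndufaf3 and Ndufaf4), 4 of complex II, 7 of complex III, 16 of complex IV and 16 of complex V. For a gene with several probe sets the brightest, by its mean over all arrays, stands for the gene. Symbols can mislead on the complex: Ndufa4 was first described in complex I and is now counted with complex IV, Cox7a2l is a factor of supercomplex assembly, Atp5if1 is the inhibitor protein of ATP synthase, and 2 members (Ndufs6-ps1 and Cox6c-ps1) carry pseudogene names.

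The respiratory chain passes electrons from NADH (complex I) and succinate (complex II) through ubiquinone to complex III, and from there through cytochrome c to complex IV, which reduces oxygen. Complexes I, III and IV pump protons out of the mitochondrial matrix, and complex V, ATP synthase, uses their return to make ATP. Neurons cover most of the cost of synaptic signalling in this way, and most of the subunits are encoded in the nucleus, with a small core set encoded in mitochondrial DNA that lies outside the rule.

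Messenger RNA was measured on 16 Affymetrix RaGene 1.1 ST v1 arrays, 1 for each of 16 wild-type male Wistar Hola rats. All rats were water restricted, trained for 3 days to drink their daily water in a limited time, and were then given either water, the familiar fluid, or 0.1% saccharin, an unfamiliar taste. The GC was taken 1 h or 3 h after the end of drinking, which gave 4 groups of 4 rats, named here by fluid and time: saccharin 1 h, saccharin 3 h, water 1 h and water 3 h. The labels give an age of 2 months and the methods an older range of weeks, and no rat without fluid is among the arrays, so a time difference is between 1 h and 3 h and not from a state before drinking. The sample titles carry numbers, C365 to C372 at 3 h and C373 to C380 at 1 h. The labels do not say what the numbers stand for. An effect that follows them and one of time cannot be told apart. In bulk tissue, fewer cells of a type and less RNA per cell cannot be told apart.

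Values are log2 signals, as normalized by the authors. Median levels of the tested probe sets were 6.11 to 6.18 over the arrays, array pairs correlated at 0.996 to 0.998, and no 2 of the 120 pairs held identical values. The neuronal marker list (10 genes, led by Snap25) had a mean level of 10.30 to 10.42 on every array, while markers of choroid plexus (5 genes) were dim at 3.74 to 3.92. Markers of leptomeninges and fibroblasts moved with time. All 14 measured genes of that list had a higher mean at 1 h than at 3 h over both tastes (median log2 0.28). At an unadjusted p under 0.05, 10 of 14 were higher, against 6.25% of all tested probe sets. At an adjusted p under 0.05 in limma, 0 of the 14 genes were. Their mean level ran from 6.58 to 6.88 in water 1 h, 6.36 to 6.72 in water 3 h, 6.66 to 6.92 in saccharin 1 h and 6.13 to 6.78 in saccharin 3 h. Of 7 striatal markers, 4 were lower at 1 h at an unadjusted p under 0.05, against 5.77% of all tested probe sets. Among them Pde10a, a phosphodiesterase of striatal neurons, passed the adjusted test (log2 -0.49, standard error 0.048, adjusted p = 1.64e-05 in limma). The part of these cell types in the member values was not tested beyond the fits below with the leptomeningeal marker mean as a covariate.

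Nuclear respiratory factor 1 (NRF-1), the ETS factor GABP and the estrogen-related receptors (ERR) are the regulators most often named for these genes. Promoters from RefSeq (assembly GRCr8, 250 bases before to 50 after the start) matched 70 of the 80 members, and were searched on both strands for GCGCA followed by any base and GCGC (NRF-1), for CCGGAAG (ETS) and for TGACCTTG (ERR). Matches of different words did not overlap in the member promoters. NRF-1 words stood in 14 of 70 member promoters (20%), against 7.25% of the 12514 promoters of tested genes and 4.25% of all 33469 promoters. ETS words stood in 21 of 70 (30%), against 13% and 8.75%. ERR words stood in 4 of 70 (5.71%), against 1.01% and 1.52%. At least 1 of the words was found in 34 of 70 member promoters (48.6%), in 19.5% of those of tested genes and in 13.6% of all. By complex, the NRF-1 word was found in 6 of 31 promoters of complex I, 5 of 15 of complex V and 0 of 12 of complex IV. These are matches of letters, not shown binding sites, and no match says only that the letters are not in the window. The promoters below show the spread of arrangements, with matches in capitals. Cox4i1 (chr19:65630133-65630432, plus strand), the member with the smallest p between the times, has 2 ETS words just after the start. Sdha (chr1:30764303-30764602, plus strand), the flavoprotein of complex II, has 3 NRF-1 words. Ndufs5 (chr5:141264353-141264652, minus strand) and Atp5mc3 (chr3:79220615-79220914, minus strand) each pair an NRF-1 with an ERR word.
Cox4i1: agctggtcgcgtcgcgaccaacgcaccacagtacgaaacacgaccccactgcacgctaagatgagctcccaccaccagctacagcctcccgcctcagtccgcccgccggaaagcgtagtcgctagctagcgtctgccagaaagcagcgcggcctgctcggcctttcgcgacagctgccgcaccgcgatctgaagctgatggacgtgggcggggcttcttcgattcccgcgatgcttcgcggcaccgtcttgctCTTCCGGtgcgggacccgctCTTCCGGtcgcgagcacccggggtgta
Sdha: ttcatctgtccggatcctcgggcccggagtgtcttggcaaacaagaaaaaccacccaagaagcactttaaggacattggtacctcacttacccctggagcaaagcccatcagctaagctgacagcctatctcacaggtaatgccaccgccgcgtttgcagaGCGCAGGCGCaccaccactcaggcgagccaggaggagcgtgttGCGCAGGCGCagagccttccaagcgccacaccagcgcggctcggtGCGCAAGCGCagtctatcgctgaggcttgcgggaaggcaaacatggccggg
Ndufs5: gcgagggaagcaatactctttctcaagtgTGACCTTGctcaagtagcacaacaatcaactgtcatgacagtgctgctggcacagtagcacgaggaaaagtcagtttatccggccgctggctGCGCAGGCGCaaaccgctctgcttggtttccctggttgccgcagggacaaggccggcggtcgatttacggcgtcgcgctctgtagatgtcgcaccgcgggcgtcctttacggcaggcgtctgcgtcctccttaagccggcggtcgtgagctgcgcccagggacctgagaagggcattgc
Atp5mc3: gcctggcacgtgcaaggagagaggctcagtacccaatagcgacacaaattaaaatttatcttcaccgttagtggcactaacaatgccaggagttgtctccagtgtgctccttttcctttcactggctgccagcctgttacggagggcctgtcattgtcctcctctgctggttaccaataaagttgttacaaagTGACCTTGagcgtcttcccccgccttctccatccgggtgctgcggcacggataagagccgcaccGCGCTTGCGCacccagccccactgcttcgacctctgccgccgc

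The members with a promoter were split by these words to describe their changes. The median 1 h minus 3 h difference, averaged over the tastes, was log2 -0.00065 for the 14 with an NRF-1 word and 0.012 for the 56 without. It was 0.0060 for the 21 with an ETS word and 0.011 for the 49 without. It was 0.049 for the 4 with an ERR word and 0.0084 for the 66 without. Differences above 0 numbered 7 of 14 with an NRF-1 word, 11 of 21 with an ETS word and 4 of 4 with an ERR word. Without the word they numbered 34 of 56, 30 of 49 and 37 of 66, against 50% of all tested probe sets. No test was run on these splits.

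Across the whole set, no member passed the test in any comparison. Between 1 h and 3 h, 0 of 80 members were called after saccharin, where limma called 0.348% of all tested probe sets, and 0 of 80 after water, where it called 0.125%. Averaged over the tastes, 0 of 80 members were called against 1.01% of all tested probe sets. Saccharin against water gave 0 of 80 at 1 h and 0 of 80 at 3 h, and 0 of 80 members differed between the tastes in their time change (the interaction), with 0% of all tested probe sets called in each of these. Averaged over the times, taste gave 0 of 80 as well (0% of all tested probe sets). At an unadjusted p under 0.05 the members numbered 7 after saccharin (7.98% of all probe sets), 7 after water (7.23%), 0 for taste at 1 h (3.06%), 2 for taste at 3 h (3.37%), 3 for the interaction (2.96%) and 0 for taste averaged over the times (3.39%). For time averaged over the tastes they numbered 16, or 20% of the 80, where the background was 12% of all tested probe sets and 14.8% of the brighter ones, at or above the median level. These 16 were 8 higher at 1 h (6.25% of all tested probe sets) and 8 lower (5.77%). After saccharin 1 of the 7 was higher at 1 h (4.56% of all tested probe sets) and 6 were lower (3.43%), while after water 6 were higher (3.67%) and 1 was lower (3.56%). Single arrays moved these small counts. The 7 after saccharin became 2 without C377, and the 7 after water became 3 without C376, 4 without C367 and 11 without C378. For taste at 3 h the 2 became 0 without C366, C367 or C368, 1 without C365 and 4 without C375 or C378. For the interaction the 3 became 0 without C365, C366, C367, C368 or C376 and 7 without C378. The 0 for taste at 1 h became 1 without C368 or C375 and 3 without C378, and the 0 for taste averaged over the times became 1 without C370, C371 or C375. At the first cut-off of the study's methods, which joins an unadjusted p with a minimum fold change, 0 members passed, where all tested probe sets gave 0.75% after saccharin, 0.572% after water, 0.48% for time averaged over the tastes, 0.0855% for taste at 1 h, 0.138% for taste at 3 h, 0.375% for the interaction and 0.0395% for taste averaged over the times.

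The intervals show how far these levels could have moved. For 1 h minus 3 h averaged over the tastes, the 80 fitted differences ran from log2 -0.20 (Ndufs6-ps1) to 0.21 (Ndufb6), and their 95% intervals together spanned -0.37 to 0.35. For 75 of the 80 genes the whole interval lay within 0.25 of 0 on the log2 scale. For taste at 3 h this held for 71 of 80 and for taste at 1 h for 72 of 80, while for the interaction, which combines 4 group means, it held for 50 of 80. Members were bright and steady: their mean levels ran from 3.04 (Cox6c-ps1) to 11.2 (Ndufa4) with a median of 9.14, 74 of 80 lay above the median level of the tested probe sets, and the median SD within a group was 0.072, against 0.093 for all tested probe sets and 0.080 for the brighter ones.

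**Figure D1:**
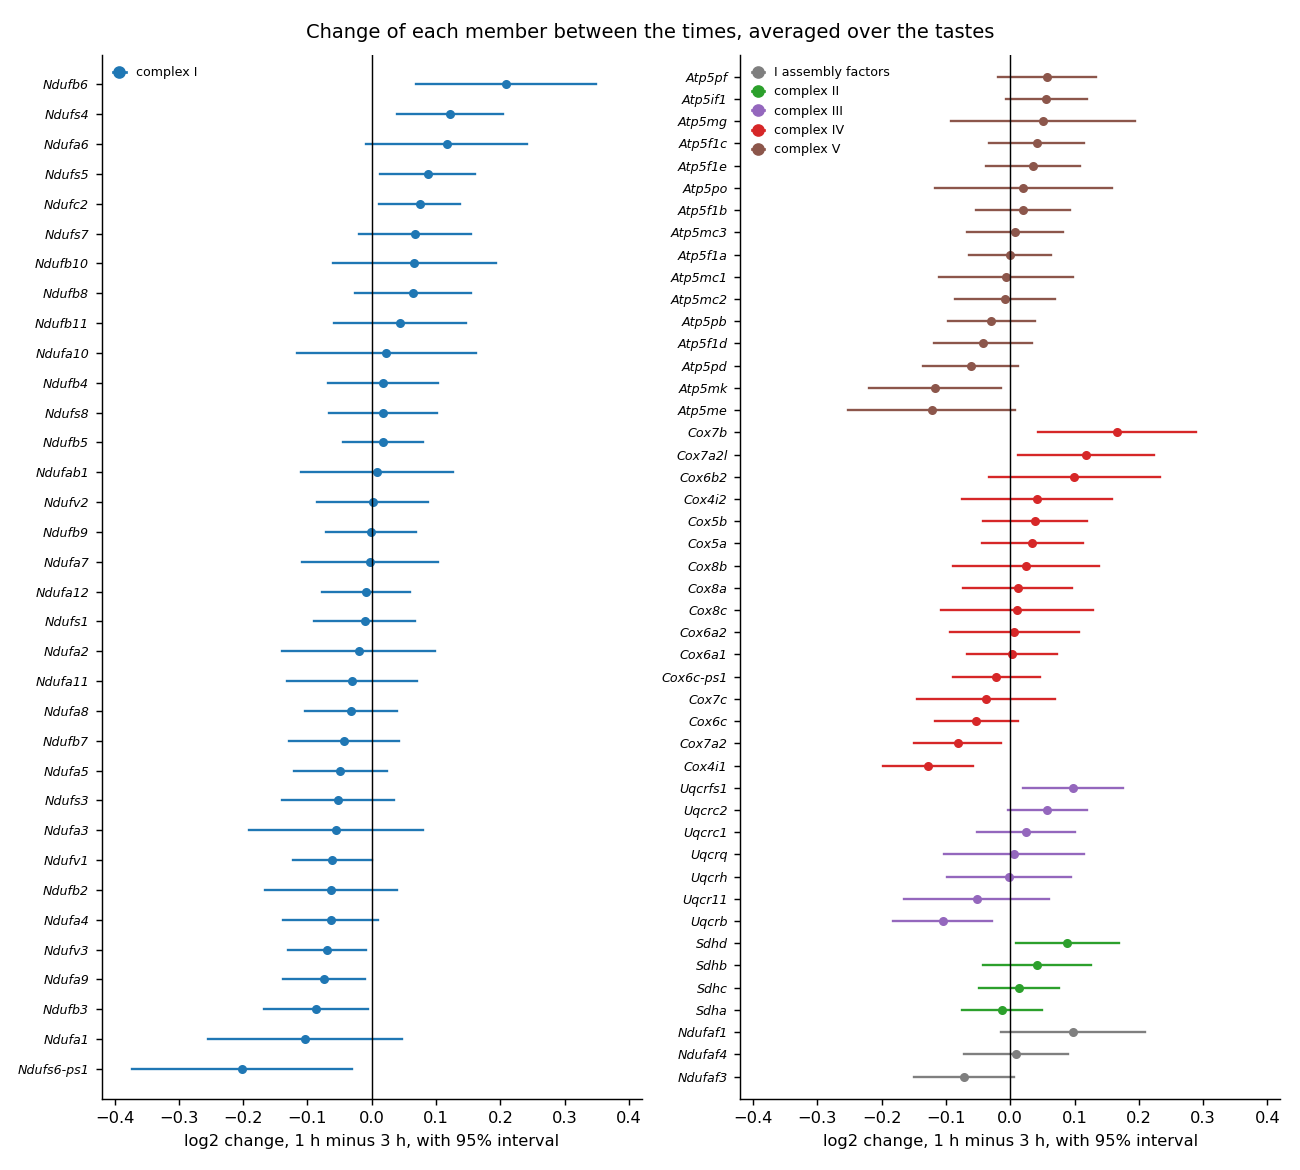
Difference between 1 h and 3 h, averaged over the tastes, for each of the 80 genes (points, log2, with 95% intervals from limma), with complex I on the left and the other complexes on the right. Differences lay between -0.20 and 0.21, with members of the same complex on both sides of 0.

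Averaged over its genes, each complex stood at nearly the same level in all 4 groups. Complex I had a mean log2 level of 8.78 ± 0.081 in water 1 h, 8.76 ± 0.033 in water 3 h, 8.78 ± 0.036 in saccharin 1 h and 8.81 ± 0.045 in saccharin 3 h (SD, n = 4 each). Complex II had 9.40 ± 0.031, 9.36 ± 0.029, 9.42 ± 0.030 and 9.39 ± 0.029 in the same order, and complex III 9.34 ± 0.072, 9.31 ± 0.067, 9.32 ± 0.034 and 9.35 ± 0.024. Complex IV had 7.79 ± 0.056, 7.75 ± 0.027, 7.77 ± 0.027 and 7.79 ± 0.031, and complex V 9.22 ± 0.073, 9.21 ± 0.035, 9.22 ± 0.034 and 9.24 ± 0.042. The arrays of the groups overlapped for every complex in each comparison of time and of taste. The difference that was largest against its standard error was that of complex II between 1 h and 3 h averaged over the tastes (0.033, standard error 0.015). Levels of different complexes are not comparable, since each mean rests on other probe sets. These means carry no p, since the genes were chosen with earlier results of these data known.

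**Figure D2:**
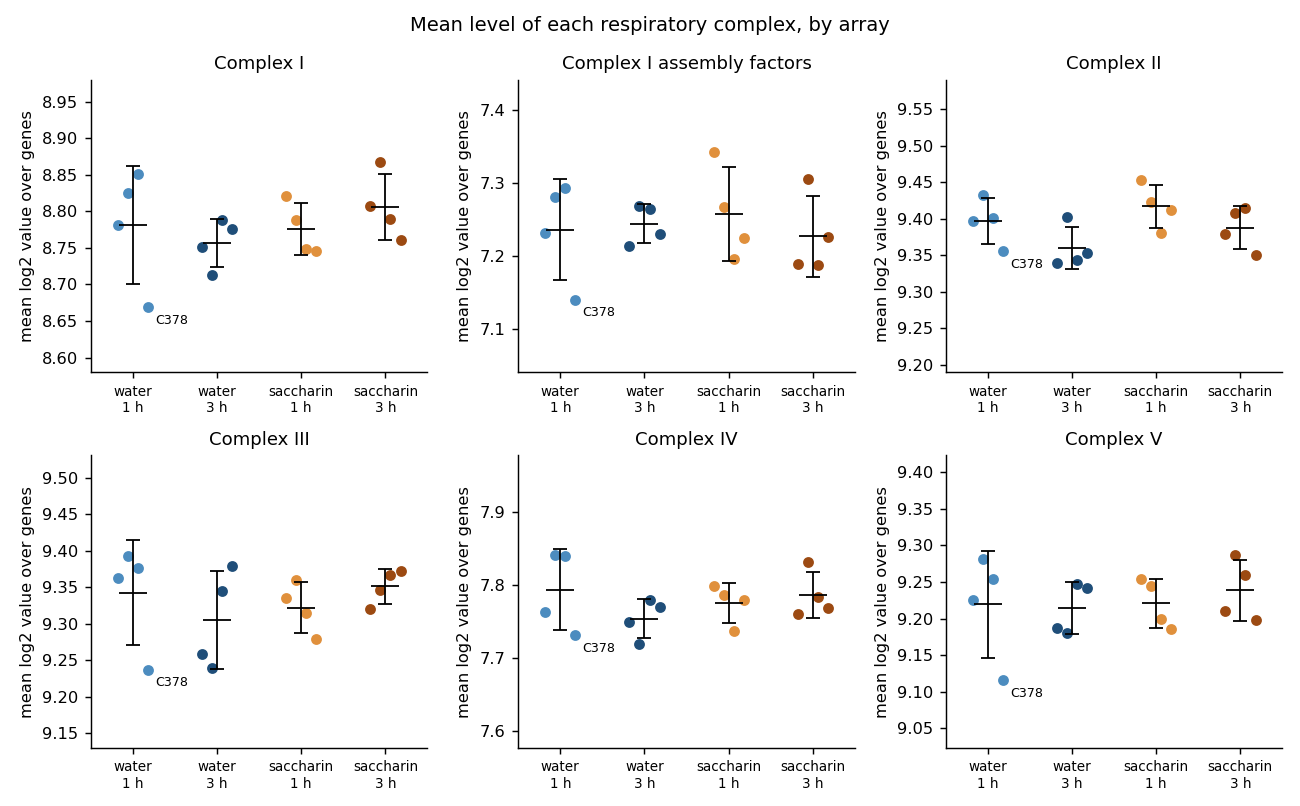
Mean log2 level over the genes of each complex, 1 point per array, with the group mean and SD (n = 4) as a bar, and a vertical range of the same width in every panel. The groups overlap throughout, and array C378 of water 1 h is the lowest of its group in every panel.

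Array C378 of the water 1 h group stood low. Over all 80 members its mean level was 8.60, against 8.63 to 8.75 on the other 15 arrays, and it was the lowest of 16 arrays for 26 of the 80 members, while it was lowest for 10.9% of all tested probe sets. The highest level of 16 arrays fell most often on C368 of saccharin 3 h (20 of 80 members, against 7.79% of all tested probe sets). On C378 the neuronal marker mean was 10.30, the lowest of its group (up to 10.39), and the astrocyte marker mean was 9.40, the highest of its group (from 9.30). The marker means of fast-spiking interneurons, microglia, choroid plexus and striatum were also the lowest of the group on C378. Those of endothelium and of pericytes were the highest. Those of oligodendrocytes, leptomeninges and blood lay in between. C378 was also the lowest array of water 1 h in the mean of each of the 5 related gene lists, namely assembly factors of complexes II to V, electron and nucleotide carriers, the citric acid cycle, glycolysis and the transcription factors of respiratory genes. The part of cell makeup in these levels was not tested. Leaving out C378 necessarily moved the water 1 h mean of all complexes up, since it was the lowest array of that group for each.

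The subunits with the lowest p between the times lay in complexes IV, I and III, in opposite directions. Cox4i1, the broadly expressed isoform of subunit 4 of cytochrome c oxidase, had the smallest p of any member. It stood at 9.68, 9.72, 9.68 and 9.67 in water 1 h and at 9.73, 9.63, 9.63 and 9.59 in saccharin 1 h. At 3 h it stood at 9.75, 9.73, 9.84 and 9.80 after water and at 9.76, 9.90, 9.74 and 9.81 after saccharin. All 8 arrays of 1 h were below all 8 of 3 h, by a narrow margin (highest at 1 h 9.728, lowest at 3 h 9.730), and Cox4i1 was the 1 member of 80 to separate in this direction (0.197% of all tested probe sets do). The fitted difference was log2 -0.13 (standard error 0.033, 95% interval -0.20 to -0.058, adjusted p = 0.0826 in limma), which missed the threshold. It was -0.16 after saccharin and -0.095 after water, with a difference between the tastes of -0.066 (the interaction, interval -0.21 to 0.074, adjusted p = 1 in limma). Cox4i1 was called in 2 of the alternatives, among the brighter probe sets alone (adjusted p = 0.0348 in limma) and with a prior that follows intensity (adjusted p = 0.0246 in limma), while with the leptomeningeal marker mean as a covariate the difference was -0.13 with adjusted p = 0.341 (limma). RefSeq lists 1 copy of Cox4i1 elsewhere in the genome, which the probes may also read.

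Ndufb6, an accessory subunit of the membrane arm of complex I, had the largest difference in the other direction. It stood at 9.17, 9.34, 9.22 and 9.19 in water 1 h, all above the 8.93, 8.91, 9.05 and 9.01 of water 3 h. After saccharin its arrays spread more widely and overlapped, with 9.50, 9.29, 9.15 and 9.09 at 1 h and 9.20, 9.35, 8.93 and 8.91 at 3 h. The difference was log2 0.26 after water (interval 0.059 to 0.45, adjusted p = 0.526 in limma) and 0.21 averaged over the tastes (interval 0.069 to 0.35, adjusted p = 0.173 in limma). Ndufs4, an accessory subunit of the matrix arm whose loss impairs complex I in humans and mice, stood at 9.44 to 9.69 in water 1 h, 9.38 to 9.51 in water 3 h, 9.56 to 9.72 in saccharin 1 h and 9.44 to 9.56 in saccharin 3 h. Its difference averaged over the tastes was 0.12 (interval 0.039 to 0.20, adjusted p = 0.178 in limma), and the arrays of the times overlapped after both fluids.

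Cox7b, a small subunit of complex IV, is given here after its values were seen, because 1 array decided its call. It stood at 8.46, 8.68 and 8.69 in water 1 h and at 8.22 on array C378 of that group. In water 3 h it was 8.26 to 8.41, in saccharin 1 h 8.45 to 8.62 and in saccharin 3 h 8.28 to 8.48. The difference averaged over the tastes was log2 0.17 with all arrays (adjusted p = 0.226 in limma) and 0.21 without C378 (adjusted p = 0.0285 in limma), which made it the 1 member called in that alternative. Cox7a2, the widespread isoform of subunit 7a, differed the other way after saccharin. It stood at 10.25, 10.21, 10.28 and 10.31 at 1 h, below the 10.33, 10.49, 10.40 and 10.38 of 3 h, a difference of -0.14 (interval -0.23 to -0.040, adjusted p = 0.365 in limma). Its arrays after water overlapped, at 10.29 to 10.38 for 1 h and 10.30 to 10.39 for 3 h. The dimmer probe set of Cox7a2 also separated after saccharin, narrowly (highest at 1 h 10.3051, lowest at 3 h 10.3135).

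**Figure D3:**
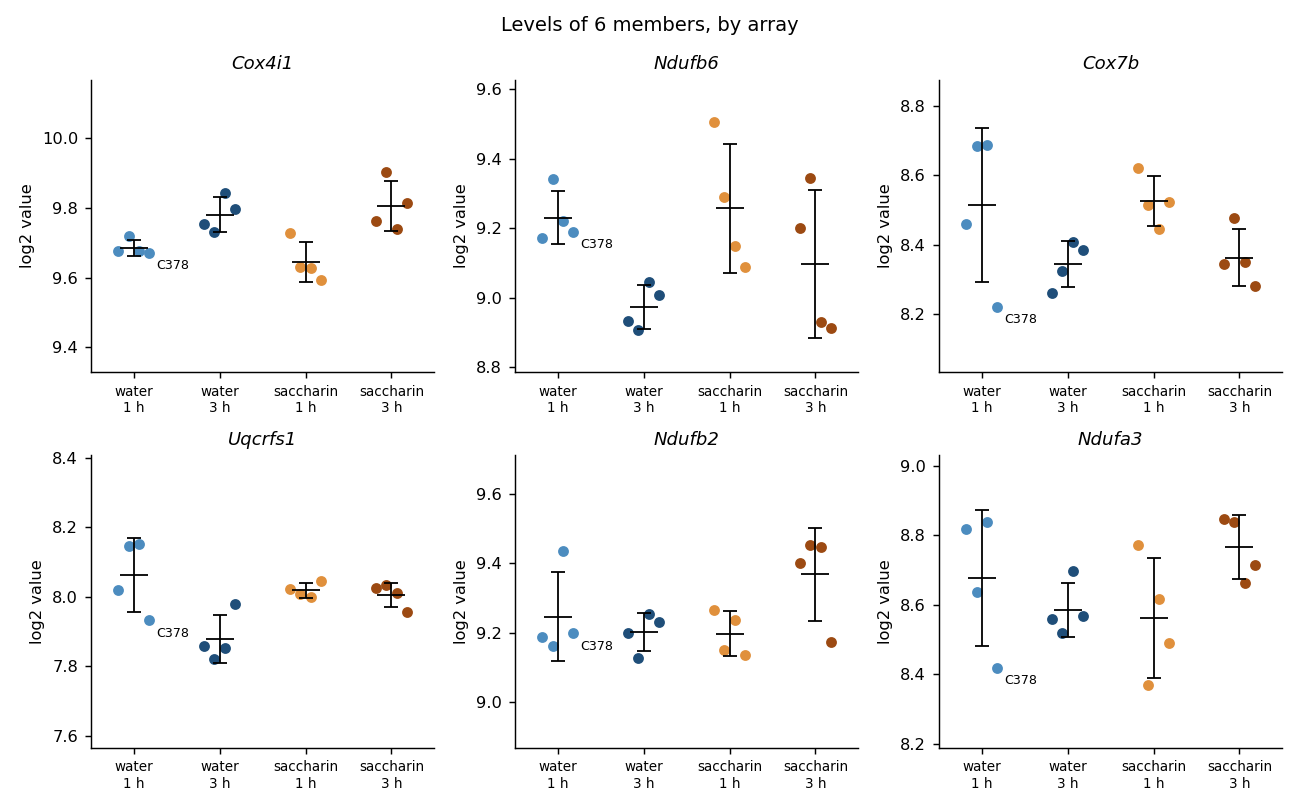
Log2 level of 6 members on each array, with the group mean and SD (n = 4) as a bar and a vertical range of the same width in every panel. Cox4i1 was lower on all 1 h arrays than on any 3 h array, while the groups of Ndufa3 overlap. Array C378 is the lowest of water 1 h for Cox7b, Uqcrfs1 and Ndufa3, and narrowly for Cox4i1.

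In complex III, Uqcrfs1, the Rieske iron-sulfur protein that carries electrons towards cytochrome c, had the smallest p for time after water. It stood at 8.02, 8.15, 8.15 and 7.93 in water 1 h and at 7.86, 7.82, 7.85 and 7.98 in water 3 h, where array C371 overlapped the 1 h range. After saccharin all 8 arrays lay between 7.96 and 8.05. The difference between the times was log2 0.18 after water (interval 0.075 to 0.29, adjusted p = 0.319 in limma) and 0.012 after saccharin (interval -0.098 to 0.12). The interaction was -0.17 (interval -0.33 to -0.017, adjusted p = 1 in limma). Uqcrc1, a core protein of the complex, stood at 9.23 to 9.42 on all arrays.

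Ndufs5, an accessory subunit of complex I on the intermembrane side, stood at 8.30, 8.38, 8.31 and 8.23 in water 1 h, all above the 8.15, 8.13, 8.20 and 8.12 of water 3 h. The difference was log2 0.15 (interval 0.046 to 0.25, adjusted p = 0.456 in limma). After saccharin the groups overlapped, at 8.14 to 8.32 for 1 h and 8.16 to 8.29 for 3 h. The dimmer probe set of Ndufs5 did not share this pattern, and its times overlapped after both fluids. It stood at 7.65 to 7.90 in water 1 h and 7.51 to 7.85 in water 3 h. After saccharin it stood at 7.78 to 8.15 for 1 h and 7.52 to 7.94 for 3 h. Members whose arrays did not overlap between the times numbered 2 higher and 4 lower at 1 h after saccharin (Ndufa6 and Uqcrc2 against Ndufb3, Ndufv1, Cox4i1 and Cox7a2), against 2.69% and 2.09% of all tested probe sets. After water they numbered 4 higher and 3 lower (Ndufb6, Ndufc2, Ndufs5 and Sdhc against Ndufa9, Cox4i1 and Atp5mk), against 1.93% and 2.43%. Cox4i1 stood in both lists. For taste at 1 h, 0 members separated in either direction (0.638% of all tested probe sets were higher and 0.861% lower after saccharin).

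At 3 h, most members had a higher mean after saccharin than after water. For 60 of the 80 genes the mean of saccharin 3 h lay above that of water 3 h, against 47.7% of all tested probe sets and 50.2% of the brighter ones, and the median difference was log2 0.032, against -0.0034 for all tested probe sets. The count was 28 of 34 in complex I, 3 of 4 in complex II, 5 of 7 in complex III, 13 of 16 in complex IV, 11 of 16 in complex V and 0 of 3 for the assembly factors. The difference is within the spread of the arrays: the mean over all members was 8.71 ± 0.034 in saccharin 3 h and 8.67 ± 0.030 in water 3 h (SD, n = 4), 0.037 apart with a standard error of 0.031. Without array C368 of saccharin 3 h the count became 49 of 80, and over all arrays left out in turn it ran from 49 to 67. At 1 h, 39 of 80 members were higher after saccharin (51.8% of all tested probe sets and 59.6% of the brighter ones). Averaged over the times, which takes in the same 3 h arrays, 61 of 80 were higher (49.2% and 55.7%).

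**Figure D4:**
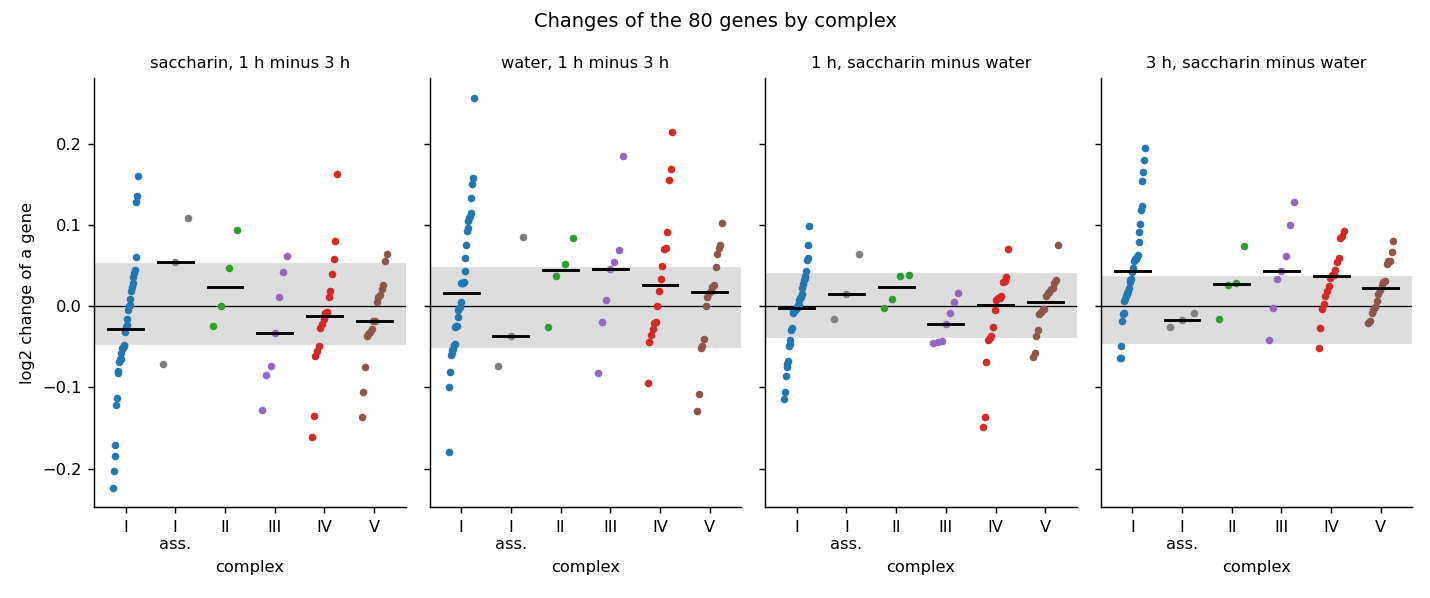
Fitted log2 difference of each of the 80 genes by complex (points) in the 4 pairwise comparisons, with the median of the complex as a line and the middle range (25th to 75th percentile) of all 15209 tested probe sets in grey. At 3 h the medians of complexes I to V lay between 0.023 and 0.044, and at 1 h between -0.022 (complex III) and 0.023 (complex II).

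Ndufb2, an accessory subunit of the membrane arm of complex I, had 1 of the smallest p values for taste at 3 h. It stood at 9.40, 9.45, 9.45 and 9.17 in saccharin 3 h and at 9.20, 9.13, 9.25 and 9.23 in water 3 h, so 3 of 4 saccharin arrays were above all water arrays and C372 was not. The 1 h arrays were at 9.16 to 9.44 after water and 9.14 to 9.27 after saccharin, where the time difference was log2 -0.17 (adjusted p = 0.532 in limma). The taste difference at 3 h was log2 0.17 (interval 0.021 to 0.31, adjusted p = 0.999 in limma) and the interaction -0.21 (interval -0.42 to -0.010, adjusted p = 1 in limma). Uqcrfs1 at 3 h was 0.13 higher after saccharin (interval 0.018 to 0.24, adjusted p = 0.999 in limma). Ndufa10, an accessory subunit of complex I and a dim member, stood at 5.94, 5.92, 6.04 and 6.05 in saccharin 3 h, above the 5.86, 5.67, 5.82 and 5.81 of water 3 h (0.20, interval -0.0019 to 0.39). Ndufa10 and Sdhc, a membrane anchor of complex II, were the 2 members whose arrays did not overlap at 3 h, both higher after saccharin (0.828% of all tested probe sets were), and 0 were lower (1.08%).

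Ndufa3, another small accessory subunit, had the largest interaction. It read 8.82, 8.64, 8.84 and 8.42 in water 1 h, against 8.56, 8.52, 8.70 and 8.57 in water 3 h. After saccharin it read 8.77, 8.37, 8.62 and 8.49 on the 1 h arrays, against 8.85, 8.84, 8.66 and 8.72 on those of 3 h. All of these groups overlap. The time difference was log2 -0.20 after saccharin and 0.092 after water, and their difference -0.30 (interval -0.57 to -0.025, adjusted p = 1 in limma). RefSeq lists 2 copies of Ndufa3. The smallest p for taste at 1 h belonged to Cox4i2, the isoform of subunit 4 known from lung, which was dim at 3.39 to 3.89 and showed -0.15 (interval -0.31 to 0.016), or -0.096 without array C374 of water 1 h. Cox6b2 (-0.14) and Cox7a2 (-0.069) followed, with intervals that contain 0. The dimmer probe set of Cox7a2 read 10.23 to 10.31 in saccharin 1 h and 10.22 to 10.34 in water 1 h. The value of Cox6b2 rested on array C376 of water 1 h, which read 5.38 beside 4.91 to 5.01 on the others of its group, and it was -0.034 without that array. Averaged over the times, the 3 smallest p values for taste were those of Cox4i2 (-0.10), Ndufb3 (0.067) and Ndufv3 (0.046). Each had an adjusted p of 0.9996 (limma) and an interval that contains 0. The dimmer probe set of Ndufv3 did not stand higher after saccharin (6.37 to 6.68) than after water (6.38 to 6.80).

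Of the core subunits listed by role, Uqcrfs1 and Cox4i1 had small unadjusted p values between the times, as given above, and the levels of the others follow. In complex I, Ndufs1 and Ndufv1, which carry the first iron-sulfur clusters and the flavin, stood at 9.87 to 10.08 and 9.81 to 9.96 over the 16 arrays, and Ndufs7, close to the ubiquinone site, at 9.38 to 9.66. In complex II, Sdha stood at 9.59 to 9.71 and Sdhb, its iron-sulfur subunit, at 9.32 to 9.68. In complex IV, Cox5a, a nuclear-encoded subunit beside the catalytic ones, stood at 9.98 to 10.19. In complex V, Atp5f1a and Atp5f1b, the alpha and beta subunits that hold the catalytic sites, stood at 11.08 to 11.22 and 11.08 to 11.30, and Atp5f1c, the gamma subunit of the central stalk, at 7.18 to 7.39. Atp5if1, the inhibitor protein that binds ATP synthase when the proton gradient falls, stood at 10.73 to 10.88. None of these was called in any comparison.

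Of the isoforms known from other tissues, Cox8b, Cox8c, Cox4i2 and Cox6b2 lay below the median level of the tested probe sets (6.15) and Cox6a2 above it. Cox8b, the heart and muscle form of subunit 8 in rodents, stood at 3.22 to 3.57, and Cox8c, known from testis, at 3.08 to 3.52, while Cox8a, the widespread form, stood at 10.88 to 11.11. Cox4i2 lay at 3.39 to 3.89 and Cox6b2, the testis form of subunit 6b, at 4.74 to 5.38. Cox6a2, the heart and muscle form of subunit 6a, lay at 6.29 to 6.59, and Cox6a1, the widespread form, at 10.94 to 11.14. Signals of different probe sets depend on their probes as well as on the mRNA, so these levels describe each probe set and give no ratio between isoforms. The 3 genes of subunit c, the rotating ring, whose mature proteins are identical, stood at 8.11 to 8.49 (Atp5mc1), 9.55 to 9.78 (Atp5mc2) and 9.86 to 10.07 (Atp5mc3). Cox6b1, Cox7a1 and Ndufa4l2 were not analysed here.

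Members varied together from array to array. Each rat had 1 array, so differences between rats and between arrays cannot be told apart. With the group means removed, the median Pearson correlation over the 3160 pairs of members was 0.28 over 16 arrays, and 80.3% of the pairs were positive. Pairs of a sample of all tested probe sets had a median of 0.0052, and pairs of the brighter ones 0.070. Within complex I the median was 0.35, within complex III 0.30, within complex V 0.27, within complex IV 0.17 and within complex II 0.058, while pairs from different complexes had 0.26. Ndufa7 and Atp5pd had the highest median correlation with the other members (0.51 each), and the dim Cox8c the lowest (-0.23). Part of this rests on the low array: without C378 the median was 0.16 for members and 0.050 for the brighter probe sets. The arrays share 1 normalization and members differ from other genes in brightness, and these correlations are a description without a test.

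Genes read by 2 probe sets were compared within the array. Of 10 such genes, 8 had the same sign of the 1 h minus 3 h difference in both probe sets, and the deviations of the probe sets from their group means correlated above 0 in 9 of 10 (median r 0.39 over 16 arrays, from -0.080 for Ndufv3 to 0.77 for Atp5mc3). Pairs of different members were already positive in 80.3% of cases, with a median r of 0.28, so these correlations say little about agreement on a gene. The largest disagreement was that of Cox5a, at log2 0.034 (standard error 0.037) for the brighter and -0.15 (standard error 0.085) for the dimmer probe set. Ndufs5 showed 0.087 and 0.18, and Atp5mc2 -0.0086 and -0.095. The probe sets paired with Ndufs6-ps1, given here after their values were seen, showed -0.20 (standard error 0.082) and -0.14 (standard error 0.039). Copies may blur such readings: RefSeq lists 113 copies for 40 of the 80 members, up to 11 for 1 gene.

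**Figure D5:**
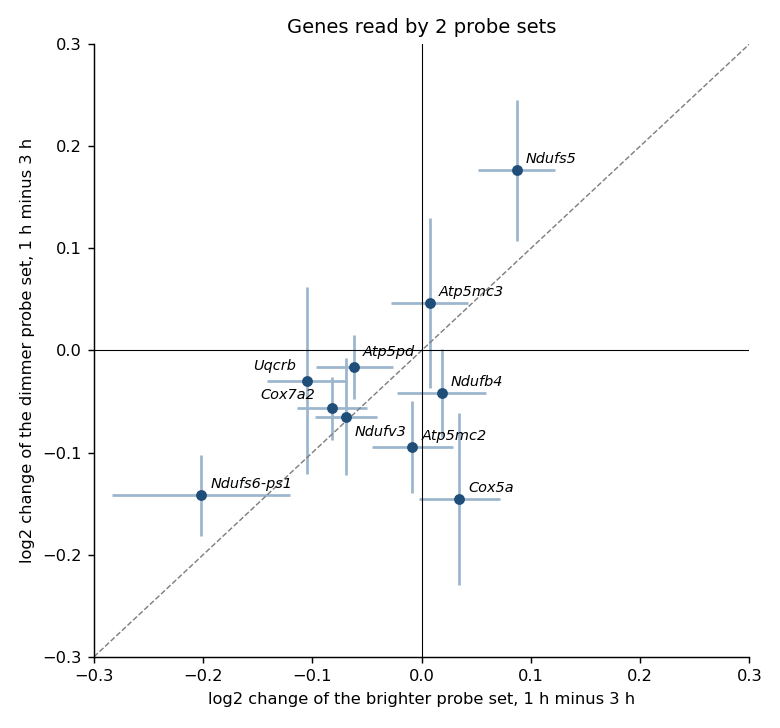
Difference between 1 h and 3 h, averaged over the tastes, of the dimmer (vertical axis) against the brighter probe set (horizontal axis) for the 10 genes with 2 probe sets, in log2 with standard errors, and the line of equality dashed. Cox5a and Ndufb4 lie in quadrants of opposite sign, and Cox5a lies farthest from the line.

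Of the genes around the chain, 1 was called. In the citric acid cycle list, 1 of 16 measured genes was called for time averaged over the tastes and 0 for any other comparison. This was Mpc1, a subunit of the carrier that brings pyruvate into mitochondria, which read 7.25, 7.40, 7.30 and 7.16 in water 1 h, against 7.20, 7.11, 7.07 and 7.09 in water 3 h. After saccharin it read 7.41, 7.34, 7.16 and 7.27 on the 1 h arrays, all above the 7.10, 7.11, 6.99 and 7.12 of 3 h. Its fitted 1 h minus 3 h difference was 0.19 on the log2 scale (standard error 0.043, adjusted p = 0.0393 in limma). It was called in 3 of the 16 fits that leave out 1 array, and with the leptomeningeal marker mean as a covariate its adjusted p was 0.136 (limma). The median of the list was 0.023, with 13 of 16 genes above 0, against 50% of all tested probe sets.

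In the other lists 0 genes were called for time averaged over the tastes, and the counts at an unadjusted p under 0.05 that follow stand beside 6.25% higher and 5.77% lower over all tested probe sets. Of 25 measured assembly factors of complexes II to V, 2 were lower and 1 higher (unadjusted p under 0.05), and the smallest p belonged to Uqcc3, a complex III assembly factor (-0.13, adjusted p = 0.239 in limma). Of 15 electron and adenine nucleotide carriers, 2 were higher, led by Slc25a4, an ADP/ATP carrier (0.11, adjusted p = 0.142 in limma). Of 16 glycolytic genes, 1 was higher and 1 lower, with the smallest p for Eno1, an enolase (-0.079, adjusted p = 0.267 in limma). Of 16 transcription factors and coactivators of respiratory genes, 4 were higher and 1 lower, the largest share of these lists, while the list's median was 0.0062. After saccharin alone 3 were higher (4.56% of all tested probe sets) and 0 lower (3.43%), with a median of 0.045. After water 1 was higher (3.67% of all tested probe sets) and 1 lower (3.56%), with a median of 0.00014. Averaged over the tastes, the smallest p belonged to Tfam, the factor that packs and transcribes mitochondrial DNA (0.16, adjusted p = 0.177 in limma). Ppargc1a, the coactivator of mitochondrial biogenesis, stood at 6.87 ± 0.076, 6.87 ± 0.039, 6.88 ± 0.083 and 6.88 ± 0.105 (SD, n = 4). These run first after water and then after saccharin, each with 1 h before 3 h.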

How the data were processed

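Labels and methods describe RNA of the gustatory cortex from 16 rats on 16 arrays. The authors processed the array files with the package affy (version not given in the sources used here), applied quantile normalization across the chips and RMA summaries, and the deposited values are log2 per probe set. They were used as deposited. The platform annotation pairs 15209 of the 28826 probe sets with a single gene, and these were tested, while 306 have several genes and 13311 are unnamed here. A probe set shared by Ndufa10 and a second gene was left out. The study selected probe sets by its own alignment to an older rat assembly (RGDv3.4), so RefSeq coordinates of GRCr8 are given for promoters only.

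In R 4.3.3, limma 3.58.1 (lmFit, eBayes) estimated a mean for each of the 4 groups and 1 spread from 16 arrays. Differences are 1 h minus 3 h and saccharin minus water. A probe set was called where its two-sided p, adjusted by Benjamini-Hochberg over 15209 probe sets, was under 0.05. The number of arrays limits the precision. The fit was checked on simulated data with independent noise for each probe set, which lack the shared variation between genes of the real arrays. Means over complexes, motif counts and correlations carry no test. Named genes are any member called, the 3 members with the smallest p in each of 7 comparisons, core subunits, isoforms, Atp5if1, up to 3 genes whose probe sets differ most, and, in the pathway lists, genes called or with the smallest p for time. Members and lists were chosen with earlier results of these data known. Alternatives covered the probe sets tested, a filter on dim ones, centring, repeated normalization, the prior, weighted arrays, fits to only the 8 arrays compared, a marker covariate, the methods' cut-off and each array left out in turn.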

Additional observations from a re-analysis of the deposited data

Results flagged for a closer look

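Of 160 groups of 4 arrays examined (named genes and complex means), 7 held an array past Dixon's critical value, and chance marks about 1 group in 20. In water 1 h, Cox4i1 was 9.7191 on C374 with the others at 9.6703 to 9.677, Ndufb2 was 9.4364 on C376 with the others at 9.1634 to 9.1983, and Ndufa4 was 11.148 on C378 with the others at 11.182 to 11.188. In water 3 h, Atp5f1b was 11.141 on C369 with the others at 11.186 to 11.193, and the dim Cox8b was 3.5593 on C365 with the others at 3.2737 to 3.3073. In saccharin 1 h, Ndufs7 was 9.4436 on C379 with the others at 9.6075 to 9.6374, and Cox8a was 11.094 on C377 with the others at 10.955 to 10.977. No named member passed the adjusted test of the difference between the tastes in their time change (adjusted p = 1 in limma for the 3 smallest).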

How the results depend on the processing

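The count of 0 members called held in all alternatives for the 6 comparisons other than time averaged over the tastes. For that comparison it became 1 among probe sets at or above the median level (Cox4i1), 1 with the trend and robust prior (Cox4i1), and 1 without array C378 (Cox7b), and it ran from 0 to 1 over the arrays left out in turn. At an unadjusted p under 0.05 the 16 members became 11 with the leptomeningeal marker mean as a covariate and 23 with the trend and robust prior, and leaving out each array gave 2 to 9 after saccharin, 3 to 11 after water, 0 to 4 for taste at 3 h and 0 to 7 for the interaction. The changes of the members with the smallest p kept their sign in every alternative. With the median over genes in place of the mean, the complex I assembly factors showed 0.10917 after saccharin, 0.085299 after water and 0.097232 over both tastes between the times. These are the changes of Ndufaf1 alone, whose level is the middle one of the 3 factors. Complex III showed -0.030027 for taste at 3 h and 0.022208 for the interaction. Complex IV showed 0.047733, 0.078877 and 0.063305 between the times after saccharin, after water and over both. The cause in complexes III and IV was not tested. The other 874 recomputed complex differences moved by less than the spread between arrays. The median correlation of members was 0.16103 without C378, an alternative chosen after seeing the data, as was leaving out arrays for the count of 60 members. No paired analysis was run, since the labels name no pairs of rats. The arrays hold no read depth, and for 4 against 4 arrays 0.0286 is the smallest two-sided exact permutation p.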

Other observations

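The 2 members with pseudogene names behaved differently as signals. Ndufs6-ps1 was bright. Its brighter probe set stood at 8.73 to 9.17 in water 1 h, 9.03 to 9.38 in water 3 h, 8.90 to 9.22 in saccharin 1 h and 8.97 to 9.54 in saccharin 3 h. These arrays overlapped in all comparisons. The 1 h minus 3 h difference of this probe set averaged over the tastes was log2 -0.20 (interval -0.37 to -0.030, adjusted p = 0.312 in limma). The dimmer probe set of Ndufs6-ps1 separated between the times after saccharin (highest at 1 h 8.218, lowest at 3 h 8.255) and overlapped after water. Cox6c-ps1 was the dimmest member at a mean of 3.04. Which transcript each probe set reads was not tested. The microglial markers had the smallest p for Cx3cr1 between the times (adjusted p = 0.126 in limma). At an unadjusted p under 0.05, 2 of 8 were lower at 1 h (5.77% of all tested probe sets) and 0 higher (6.25%).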
